A study of Mus musculus with 6 samples.

Results

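Interferon-stimulated antiviral genes were examined in bulk RNA from back skin of mice, comparing the tight skin (TSK) mutant with wild type (WT). The set holds 35 genes, listed by name for their known induction by type I interferon, and all 35 were found among the 55291 genes of the count table. Shaved dorsal skin of 3 mice per genotype was used, the WT mice being littermates, with 1 library per mouse, and all 6 mice were C57BL/6 and labelled as 6 to 8 weeks old. TSK mice are heterozygous for a duplication inside Fbn1, the gene of the microfibril protein fibrillin 1, which they carry in every tissue. Homozygotes die before birth, and the mutation was kept by crossing to C57BL/6. WT mice carried no such duplication, and neither group received a treatment. Sex is female on the labels but male in the study's methods. Ddx3y, a Y-linked gene, was at 56.7 to 72.8 CPM (counts divided by the library total and scaled to 1000000) in the 6 libraries, whereas Xist, the RNA of the inactive X, was at 2.57 to 4.58 CPM. Expression of a Y-linked gene in all 6 libraries goes with the male sex given in the methods.

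Type I interferons bind a receptor whose kinases activate the transcription factor complex ISGF3, which includes STAT2 and IRF9. ISGF3 binds the interferon-stimulated response element (ISRE) in the promoters of antiviral genes. Among the products are sensors of viral nucleic acid, enzymes that degrade RNA or block translation, membrane proteins that hinder entry or release of virus, and IRF7, which amplifies interferon production. In skin, keratinocytes, fibroblasts, endothelial cells and resident immune cells can all respond to interferon.

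The sequences that such factors read were looked up first. RefSeq promoter windows (GRCm38.p6, the build called mm10), each reaching from 250 bases before the annotated start to 50 after it, were found for 26 of the 35 genes. A match to the ISRE, spelled as GAAA and a second GAAA with any 2 bases between them (TTTC and TTTC on the other strand), stood in the window of 12 of these (46.15%), against 3.993% of the 27025 genes with a window. The 12 were Bst2, Ddx58, Eif2ak2, Ifih1, Ifit1, Ifit3, Ifitm3, Isg15, Oas1a, Oas3, Rsad2 and Stat2, and 6 of them held at least 2 matches. The gamma-activated site TTCNNNGAA, which reads the same on both strands, was matched in 6 genes (23.08%), against 9.554% of all genes. It overlapped an ISRE match in Bst2 and Ifitm3. A match is a description of the letters and not a measured binding site. The 250 bases before the start are shown for Isg15, Oas3 and Ifit3, since these had the lowest adjusted p-values among genes with a match. Each is written 5′ to 3′ on the strand of its gene, with the ISRE matches in capitals. Isg15 lies on the minus strand at chr4:156200819-156201068, Oas3 on the minus strand at chr5:120777660-120777909, and Ifit3 on the plus strand at chr19:34583279-34583528.
Isg15: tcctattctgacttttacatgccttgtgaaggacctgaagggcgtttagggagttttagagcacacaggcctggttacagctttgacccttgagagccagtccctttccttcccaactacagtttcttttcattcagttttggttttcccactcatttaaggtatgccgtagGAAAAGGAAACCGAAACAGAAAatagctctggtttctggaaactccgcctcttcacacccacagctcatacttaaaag
Oas3: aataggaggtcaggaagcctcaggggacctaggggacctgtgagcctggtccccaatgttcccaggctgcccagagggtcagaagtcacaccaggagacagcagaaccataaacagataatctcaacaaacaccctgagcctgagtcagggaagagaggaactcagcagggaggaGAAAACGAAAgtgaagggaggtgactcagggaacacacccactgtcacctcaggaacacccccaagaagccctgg
Ifit3: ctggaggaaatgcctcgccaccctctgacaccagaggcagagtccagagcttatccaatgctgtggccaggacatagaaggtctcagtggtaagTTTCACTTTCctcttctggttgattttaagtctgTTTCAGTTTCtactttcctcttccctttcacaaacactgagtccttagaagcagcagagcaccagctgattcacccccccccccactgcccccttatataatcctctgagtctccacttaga
In Isg15, 3 overlapping matches began at -78, -72 and -66 relative to the start. Oas3 had a single match at -75. The matches of Ifit3 are of the TTTC form on its own strand and began at -156 and -122. Ifitm3, the most abundant of the 35 genes, held its 2 matches at 2 and 19, just inside the transcribed part.

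The libraries were of like depth, with totals of 17561453 to 18787616 counts in WT and 18185549 to 19219814 in TSK. Fbn1, the mutated gene, stood at 267, 289 and 262 CPM in the WT libraries and at 1538, 2284 and 2007 CPM in the TSK libraries, a log2 fold change of 2.54 (SE 0.22, adjusted p = 0.00327 by edgeR's quasi-likelihood test), and all TSK libraries were above all WT libraries. Fold changes were computed after TMM normalization, which sets the scale between libraries from the bulk of genes. The factors spanned 0.8227 to 1.025 for WT libraries and 1.063 to 1.129 for TSK libraries. Besides keratinocyte genes, skeletal muscle genes were abundant in every library and summed to 135930, 196140 and 185910 CPM for the WT mice and to 132730, 123790 and 117870 CPM for the TSK mice. In bulk tissue, fewer cells of a type and less RNA per cell cannot be told apart.

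To ask whether the antiviral genes differ between TSK and WT skin, all 19971 genes with enough counts were fitted together, and all 35 antiviral genes were among them. None was called lower and none higher in TSK at an adjusted p below 0.05 (edgeR, Benjamini-Hochberg), where 3.39% of all tested genes were called, 0.681% lower and 2.71% higher. The lowest adjusted p was 0.0666, for Oas3. At an unadjusted p below 0.05, 9 of the 35 (25.7%) were lower, against 7.9% of all genes, and 0 were higher, against 12.1%. The fold change was negative for 31 of the genes and positive for 4, whereas 52.99% of all genes had a negative one. The median log2 fold change (TSK minus WT) was -0.32 over the antiviral genes and -0.03 over all genes. With library totals alone as the scale, the median was -0.07 over the antiviral genes and 0.25 over all genes, so that the sign of genes near 0 depended on the scaling.

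DESeq2, the tool named by the study, called 4 of the 35 lower (11.4%) and 0 higher, where it called 2.01% of all genes lower and 5.56% higher. The 4 were Oas3 (DESeq2 adjusted p = 0.00227), Isg15 (0.0167), Irf7 (0.0269) and Ifit3 (0.0495). With WT 1 left out, DESeq2 called Oas3 alone (adjusted p = 0.0427), where 4.61% of all genes were called lower. Oas3 was also the only call without TSK 1 (1.63% of all genes) and the only call without TSK 2 (1.27%). DESeq2 called 3 genes lower without TSK 3 (1.28% of all genes), 4 without WT 3 (0.809%) and 6 without WT 2 (0.923%). The difference in level was thus unequal within the set. A log2 fold change below -1 was found for 5 genes, namely Oas3, Isg15, Irf7, Oasl1 and Ifit3. A further 15 lay between -1 and -0.25, and the other 15 lay within 0.25 of 0.

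The spread was concentrated in 1 WT library. WT 1 had the highest value of all 6 libraries, after TMM scaling, for 30 of the 35 genes (85.71%), whereas it was the highest library for 18.34% of all genes. Of the other 5 genes, 2 peaked in WT 3, 2 in TSK 2 and 1 in TSK 3. TSK 1 was the lowest library for 20 genes, and for 11.67% of all genes. The mean log2 CPM of the set was 3.97, 3.12 and 3.42 for WT 1, 2 and 3, and 2.84, 3.09 and 3.28 for TSK 1, 2 and 3. Over all genes this mean stayed between 3.02 and 3.11. WT 1 thus lay above the 5 other libraries, and the range of WT 2 and WT 3 overlapped that of TSK.

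**Figure D1:**
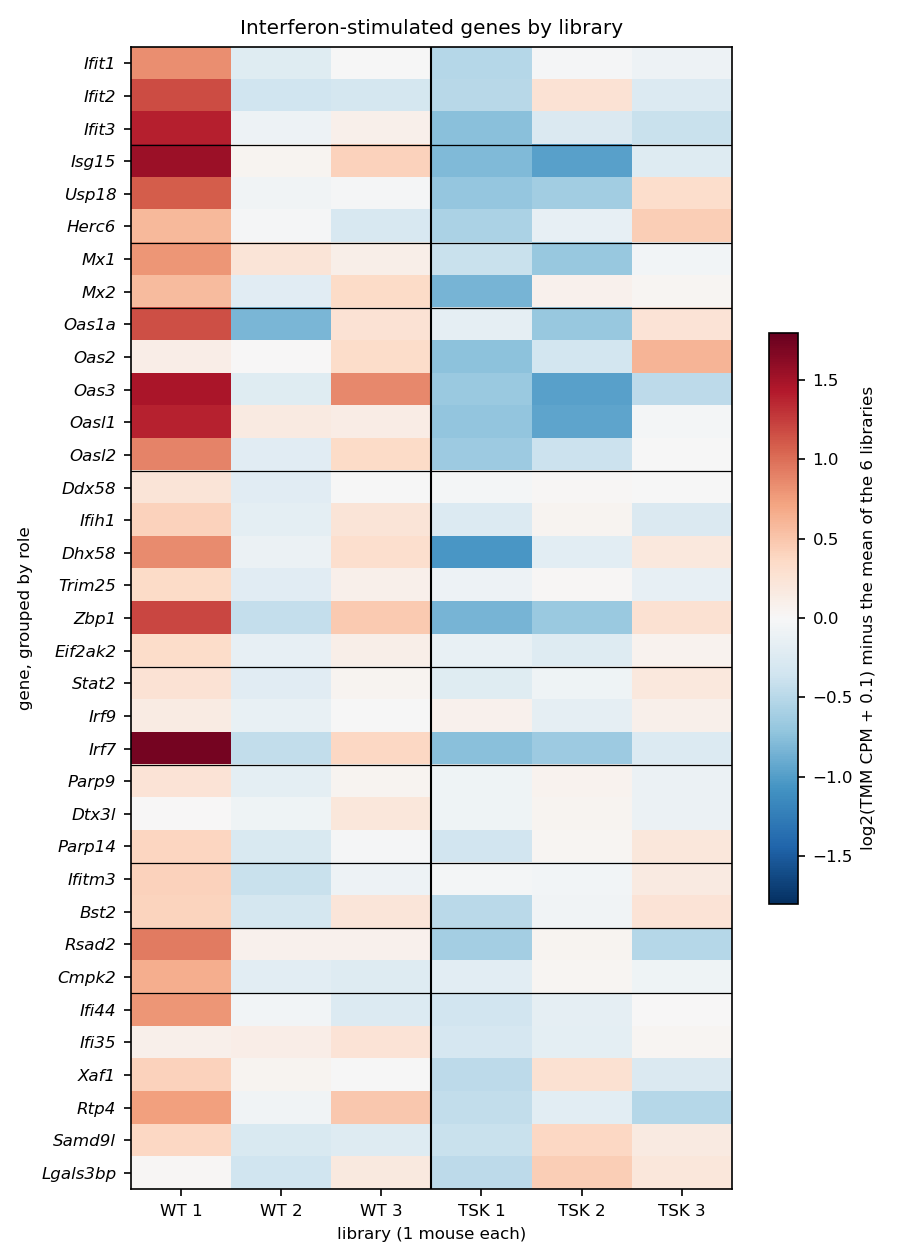
Level of the 35 antiviral genes (rows, grouped by role) in the 6 libraries (columns), as log2(TMM CPM + 0.1) minus the mean of the gene over the libraries, with red above and blue below that mean. All 35 genes are above their mean in WT 1, 7 in WT 2, 23 in WT 3, 1 in TSK 1, 13 in TSK 2 and 17 in TSK 3.

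Within WT, the median SD of a gene on the log2 scale was 0.41 for the antiviral genes and 0.23 for all genes. Within TSK it was 0.28 and 0.23. The SD was greater in WT than in TSK for 26 of the 35 genes, against 51.9% of all genes. WT 1 exceeded the mean of WT 2 and WT 3 by a median of 0.63 on the log2 scale over the set, against 0.017 over all genes. Of all genes, 9% reached 0.63 or more, a share of single genes that does not measure how unusual the median of a set is. For 9 genes, and for 2.92% of all genes, the excess was over 1, that is more than 2-fold: Irf7 (3.36-fold), Ifit2 (2.85), Oas1a (2.71), Ifit3 (2.64), Isg15 (2.47), Oasl1 (2.35), Zbp1 (2.26), Oas3 (2.22) and Usp18 (2.20). In contrast, Oas2 (0.963-fold), Dtx3l (0.962) and Ifi35 (0.936) showed no such excess. Smaller differences of the same kind were found elsewhere: WT 3 was above WT 2 for 28 genes (48.17% of all genes), and TSK 3 above TSK 1 for 30 (51.2% of all genes).

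Among the transcription factors, Irf7 had the greatest spread over the WT mice. Irf7, the amplifier of the interferon response, was at 49.1, 8.78 and 16.7 CPM in WT 1 to 3 and at 9.07, 10.2 and 13.8 CPM in TSK 1 to 3. WT 1 stood alone, and WT 2 was below all 3 TSK libraries on this scale. The log2 fold change was -1.37 (SE 0.47, adjusted p = 0.154 with edgeR), and it was -0.54 (SE 0.27, adjusted p = 0.265) without WT 1. Stat2, a subunit of ISGF3 and the most abundant gene of this role, was at 35.7, 20.8 and 26.5 CPM in WT and at 26.5, 30.5 and 37.2 CPM in TSK. The groups overlapped, with a log2 fold change of -0.08 (SE 0.16, adjusted p = 0.839). Irf9, the subunit that contacts DNA, had a log2 fold change of 0.00 (SE 0.13). Stat2 and Irf9 therefore showed differences near 0, in contrast to the point estimate for Irf7.

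Oligoadenylate synthetases sense double-stranded RNA and make a messenger that activates the nuclease RNase L. The 5 genes measured of the wider OAS family lie on mouse chromosome 5, with -0.74 as the median of their log2 fold changes. Oas3 was at 14.6, 3.57 and 8.26 CPM in WT 1 to 3 and at 3.36, 2.80 and 4.09 CPM in TSK 1 to 3. WT 1 and WT 3 were above every TSK library, and WT 2 lay between the TSK values on this scale. The mean was 8.81 ± 5.53 CPM in WT and 3.42 ± 0.643 in TSK (SD, n = 3), with a log2 fold change of -1.59 (SE 0.39, adjusted p = 0.0666 with edgeR). Without WT 1 the log2 fold change was -1.11 (SE 0.34, adjusted p = 0.0948). Oas1a was at 9.22, 1.82 and 4.25 CPM in WT and at 3.72, 2.71 and 5.38 CPM in TSK. WT 1 was the highest and WT 2 the lowest of the 6 libraries, so that the groups overlapped fully. The log2 fold change of Oas1a was -0.59 (SE 0.46, adjusted p = 0.531) and became 0.05 (SE 0.40) without WT 1.

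Oasl2, the most abundant of the 5, was at 28.0, 10.5 and 16.5 CPM in WT and at 9.91, 12.5 and 16.4 CPM in TSK. On this scale WT 1 stood clear of TSK, WT 3 was level with TSK 3 and WT 2 fell among the TSK values. The log2 fold change was -0.74 (SE 0.28, adjusted p = 0.182). Oasl1, which restrains translation of Irf7 mRNA, had one of -1.26 (SE 0.42, adjusted p = 0.145). Oas2 had one of -0.19 (SE 0.31) and peaked in TSK 3 at 20.8 CPM. Of the sequence of Oas1a, 57.57% in windows of 50 bases, the length of a read, is shared with the neighbouring copy Oas1g, so that its counts are uncertain. The sum of the 2 genes was 13.03, 3.96 and 6.40 CPM in WT and 5.17, 3.35 and 7.97 CPM in TSK, and WT 1 was again the highest.

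**Figure D2:**
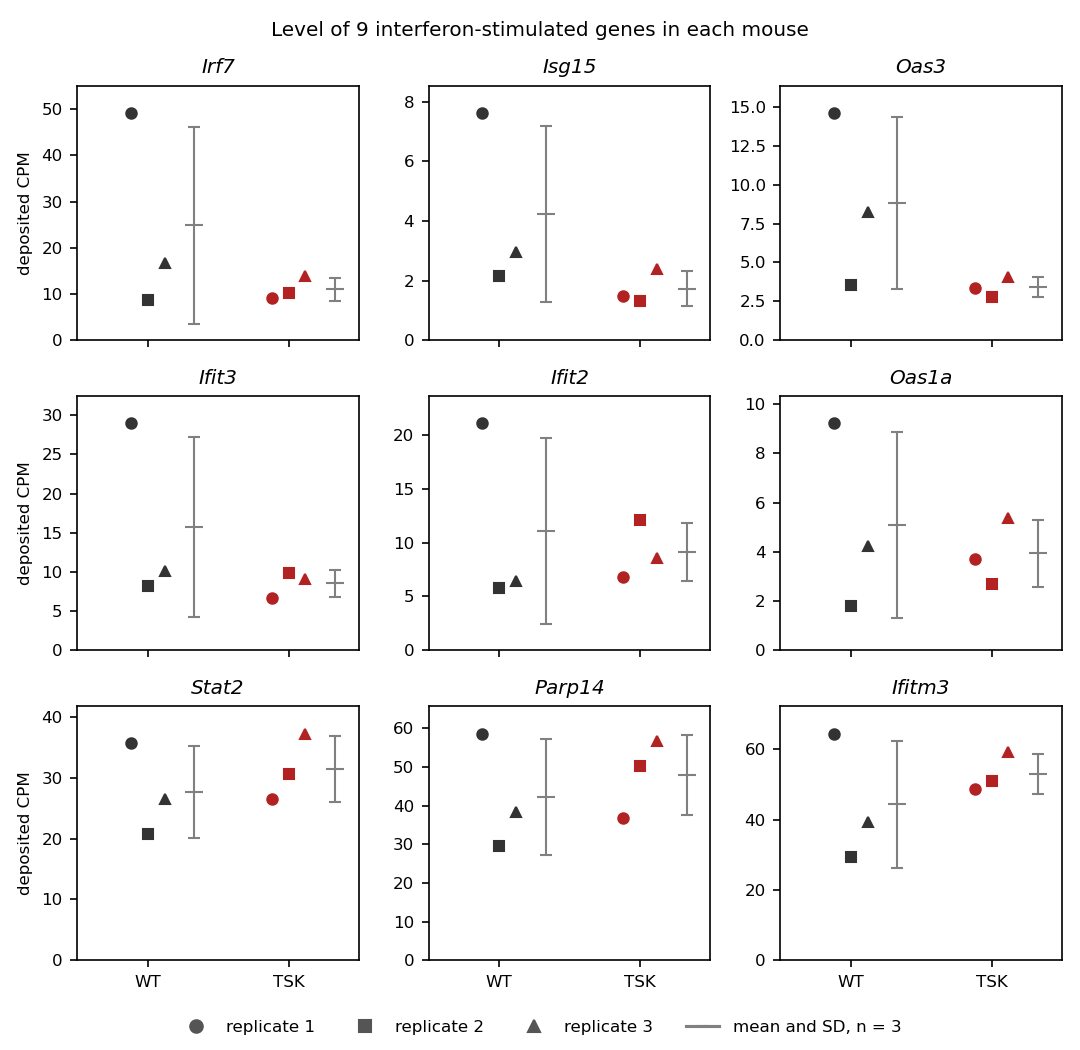
Deposited CPM of 9 antiviral genes in each mouse, with WT in black and TSK in red, a symbol for each replicate number, and the mean and SD of each group (n = 3) in grey. The groups overlap for all 9 genes on this scale, and WT 1 is the highest library for each gene except Stat2, for which it is TSK 3.

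IFIT proteins bind viral RNA that lacks host cap modifications. The 3 genes lie together on chromosome 19 and each peaked in WT 1. Ifit3 (chr19:34583531-34588731), the most abundant, was at 29.0, 8.19 and 10.1 CPM in WT and at 6.66, 9.90 and 9.07 CPM in TSK. WT 1 was far above every other library, and WT 2 fell among the TSK values. The log2 fold change was -1.10 (SE 0.38, adjusted p = 0.154) with all libraries and -0.44 (SE 0.19, adjusted p = 0.215) without WT 1. Ifit3 shares 51.24% of its windows with Ifit3b, and the sum of both was 37.8, 12.7 and 15.9 CPM in WT and 11.7, 14.9 and 12.7 CPM in TSK. Ifit2 was at 21.1, 5.80 and 6.43 CPM in WT and at 6.76, 12.1 and 8.59 CPM in TSK. On this scale both other WT libraries were below all TSK libraries, whereas after TMM scaling TSK 1 was the lowest library. The log2 fold change went from -0.49 (SE 0.42, adjusted p = 0.56) to 0.23 (SE 0.24, adjusted p = 0.624) when WT 1 was left out. Ifit1 had a log2 fold change of -0.48 (SE 0.29, adjusted p = 0.399), and of -0.06 without WT 1.

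Isg15 encodes a ubiquitin-like protein that is attached to other proteins, Herc6 the ligase that attaches it in mice, and Usp18 the protease that removes it and also blocks the interferon receptor. Isg15, singled out here after its values were seen, was at 7.62, 2.16 and 2.94 CPM in WT and at 1.47, 1.33 and 2.39 CPM in TSK. On this scale TSK 3 lay between WT 2 and WT 3, and the other TSK libraries were below all WT libraries. After TMM scaling TSK 3 was below all WT libraries as well. The log2 fold change was -1.50 (SE 0.42, adjusted p = 0.0943 with edgeR), and -0.89 (SE 0.32, adjusted p = 0.147) without WT 1. Herc6, the most abundant of the 3 genes, was at 11.7, 6.15 and 5.52 CPM in WT and at 5.40, 7.63 and 11.7 CPM in TSK. Its highest TSK library equalled WT 1 to the digits given, and the log2 fold change was -0.17 (SE 0.31, adjusted p = 0.805). Usp18 had one of -0.72 (SE 0.40, adjusted p = 0.371).

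Mx1 and Mx2 encode dynamin-like GTPases that trap viral components, and Mx1 is disrupted in most inbred laboratory strains. Mx1 was at 10.9, 5.89 and 5.82 CPM in WT and at 4.90, 4.24 and 6.67 CPM in TSK. TSK 3 lay above WT 2 and WT 3 on this scale, and the log2 fold change was -0.77 (SE 0.25, adjusted p = 0.131). Mx2 had one of -0.48 (SE 0.33). Rsad2 encodes viperin, which makes a chain-terminating nucleotide, and its neighbour Cmpk2 a kinase that supplies the substrate. Rsad2 was at 14.7, 6.49 and 6.97 CPM in WT and at 5.16, 8.63 and 5.89 CPM in TSK. TSK 2 was above WT 2 and WT 3 on this scale but below both after TMM scaling. The log2 fold change of Rsad2 was -0.76 (SE 0.29, adjusted p = 0.19), while that of Cmpk2 was -0.23 (SE 0.27).

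Whether groups overlapped depended on the scale. After TMM scaling, all 3 TSK libraries were below all 3 WT libraries for 8 genes, namely Ifit3, Isg15, Mx1, Oas3, Oasl1, Rsad2, Ifi35 and Rtp4. These are 22.9% of the set, against 10.6% of all genes, and 0 genes showed the reverse, against 14.1%. On deposited CPM, 0 genes were separated in either direction, against 2.58% of all genes lower and 29.1% higher. Without WT 1 the same 8 genes were separated after TMM scaling, but so were 22.5% of all genes, so the share in the set was then near that of all genes. In that case 2 genes, Ifitm3 and Cmpk2, were separated with TSK higher, against 22% of all genes.

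The 6 sensors of viral nucleic acid and their partners had log2 fold changes from -0.91 to -0.02, with a median of -0.26, and all 6 peaked in WT 1 after TMM scaling. Trim25, a ubiquitin ligase of the RIG-I pathway and the most abundant of them, was at 49.3, 27.2 and 35.9 CPM in WT and at 37.8, 42.8 and 38.6 CPM in TSK. The TSK values lay within the WT range, with a log2 fold change of -0.17 (SE 0.15, adjusted p = 0.585). Ddx58, which encodes the RNA sensor RIG-I, had one of -0.02 (SE 0.14), Ifih1, which encodes MDA5, one of -0.32 (SE 0.18), and Eif2ak2, which encodes the translation-blocking kinase PKR, one of -0.20 (SE 0.15). Zbp1, a sensor of left-handed nucleic acid that triggers cell death, had one of -0.91 (SE 0.44, adjusted p = 0.291), and Dhx58, the regulator LGP2 of the RIG-I family, one of -0.69 (SE 0.36, adjusted p = 0.336). In both, the values ranged widely within the groups, from 2.97 to 11.7 CPM in WT for Zbp1 and from 1.60 to 4.13 CPM in TSK for Dhx58.

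Parp9, Dtx3l and Parp14 are neighbours on chromosome 16 that act in ADP-ribosylation and ubiquitination. Parp14, the most abundant, was at 58.6, 29.6 and 38.3 CPM in WT and at 36.7, 50.1 and 56.8 CPM in TSK. The groups overlapped, with a log2 fold change of -0.07 (SE 0.20, adjusted p = 0.884). Parp9 had one of -0.09 (SE 0.15) and Dtx3l one of -0.09 (SE 0.12). With library totals alone the signs turned, to 0.18 for Parp14, 0.17 for Parp9 and 0.18 for Dtx3l. Parp9 (chr16:35938470-35972605, plus strand) and Dtx3l (chr16:35926511-35939151, minus strand) overlap at their ends, where reads can be assigned to either gene unless strand is used.

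Ifitm3 blocks fusion of virus in endosomes, and Bst2 tethers virus to the cell surface. Ifitm3 was at 64.5, 29.3 and 39.2 CPM in WT and at 48.7, 50.8 and 59.3 CPM in TSK. WT 1 was the highest library and the TSK values fell between it and the other WT libraries, with a log2 fold change of 0.01 (SE 0.20, adjusted p = 0.98). Bst2 had one of -0.21 (SE 0.25). Per kilobase of exon, Ifitm3 was the most abundant gene of the set at 65.35 CPM per kilobase in WT and 78.11 in TSK, followed by Lgals3bp at 11.95 and 15.95. Ifi44 was the least abundant, at 0.368 CPM per kilobase in WT and 0.321 in TSK.

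None of the other 6 interferon-induced genes passed the threshold, and their median log2 fold change was -0.29. Lgals3bp, a secreted glycoprotein, was at 39.5, 24.4 and 38.2 CPM in WT and at 29.2, 57.6 and 49.4 CPM in TSK. On this scale TSK 2 and TSK 3 were the highest libraries and TSK 1 lay among the WT values. The log2 fold change was 0.14 (SE 0.23, adjusted p = 0.785). Rtp4, a chaperone that limits some viral infections, had one of -0.82 (SE 0.25, adjusted p = 0.108), which was -0.60 without WT 1. Ifi44 (-0.43), Ifi35 (-0.30) and Xaf1 (-0.29) lay below 0, and Samd9l, a restriction factor that shuts down translation, lay at 0.09. At least 10% of the sequence windows of Herc6, Rtp4, Ifi35 and Ifitm3, besides Ifit3 and Oas1a, are shared with another annotated gene. With all 6 of these genes left out, the median log2 fold change of the set remained -0.32.

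The edgeR fit was repeated without WT 1, which was the highest library for 30 of the genes. Its removal was bound to lower the WT level of those genes, so the direction of the shift was fixed in advance. The fold change was then negative for 22 genes and positive for 13, and 47.97% of the 20546 genes tested were negative. The median log2 fold change of the set was -0.09. With TSK 1 left out instead, the lowest library for 20 genes, it was -0.23. None of the 35 was called lower or higher, against 2.66% and 3.47% of all genes, and 3 genes (8.57%), namely Oas3, Isg15 and Rtp4, were lower at an unadjusted p below 0.05, against 10.1% of all genes. Oas3 alone kept a log2 fold change below -1.

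**Figure D3:**
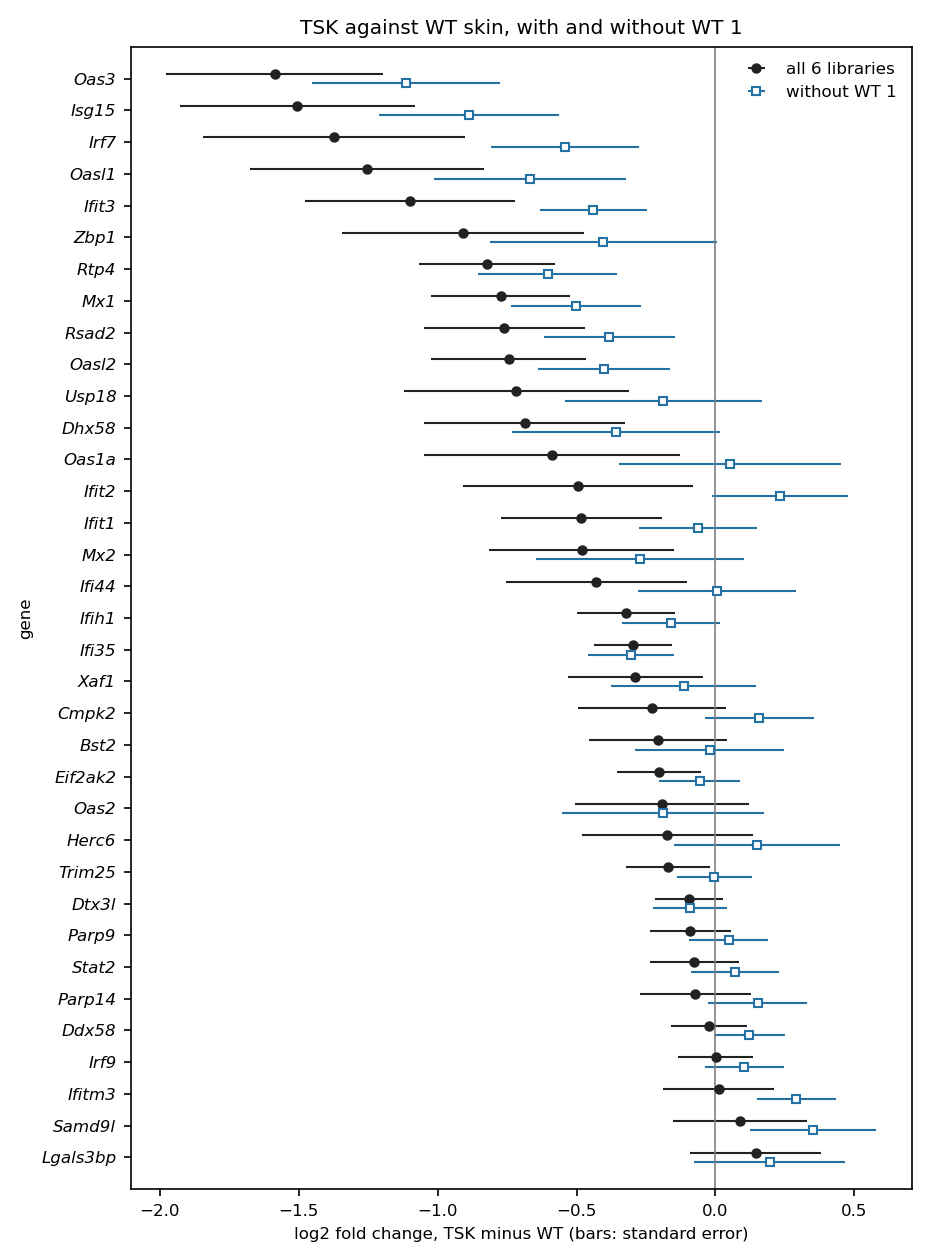
Log2 fold change (TSK minus WT) of the 35 antiviral genes from edgeR, with all 6 libraries (filled circles) and without WT 1 (open squares), and bars of 1 standard error. Oas3 lies at -1.59 with all libraries and at -1.11 without WT 1, Irf7 moves from -1.37 to -0.54, and 13 genes lie above 0 without WT 1.

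The rest of the pathway was described with lists of 98 tested genes in all, of which edgeR called 0 at an adjusted p below 0.05, 9 (9.18%) were lower and 12 (12.2%) higher at an unadjusted p below 0.05, near the 7.9% and 12.1% of all genes, and DESeq2 called 4 lower (4.08%, against 2.01% of all genes) and 2 higher (2.04%, against 5.56%). Of 20 interferon genes, 17 had no count in any library and the others, Ifna16, Ifnab and Ifnk, too few to test. A count of 0 allows up to 0.156 to 0.171 CPM, depending on the library, which covers counting error only. The 10 genes for receptors and JAK-STAT kinases and factors had log2 fold changes with a median of -0.01, 6 negative and 4 positive. Of these 10, 0 peaked in WT 1, against 18.34% of all genes. The 4 positive ones were receptor genes: Il10rb (0.80), Ifnar2 (0.44), Ifnar1 (0.40) and Ifngr1 (0.35), with edgeR adjusted p from 0.125 to 0.269. After TMM scaling all TSK libraries were above all WT libraries for Ifnar1 and Ifngr1, as for 14.1% of all genes. Jak1, a receptor kinase and the most abundant, was at 209, 203 and 215 CPM in WT and at 217, 217 and 220 CPM in TSK (log2 fold change -0.22, SE 0.14, adjusted p = 0.419). The 14 upstream sensors and adaptors had a median of 0.11, and the most abundant was Mavs, the adaptor of RIG-I. Mavs was at 26.3, 31.6 and 31.3 CPM in WT and at 36.4, 48.9 and 32.4 CPM in TSK (log2 fold change 0.11, SE 0.20). The 11 negative regulators had a median of 0.12, and the most abundant was Irf2bp2, a corepressor. Irf2bp2 was at 94.1, 81.5 and 78.3 CPM in WT and at 119, 123 and 135 CPM in TSK (log2 fold change 0.29, SE 0.12, adjusted p = 0.215).

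Other type I interferon-induced genes gave a mixed picture. Of 46 tested, 21 had a negative and 25 a positive log2 fold change, and the median was 0.03. WT 1 was the highest library for 19 of them, against 18.34% of all genes. Slfn5, a nuclear restriction factor and the most abundant of them, was at 82.8, 52.2 and 47.3 CPM in WT and at 75.8, 104 and 95.0 CPM in TSK, with a log2 fold change of 0.33 (SE 0.18, adjusted p = 0.344). Among the genes called by DESeq2, named here after their values were seen, Ifi206, a member of the p200 family, and Ms4a4c, a membrane protein, were highest in WT 1. Ifi206 was at 5.09, 1.17 and 2.32 CPM in WT and 0.406, 0.481 and 1.04 CPM in TSK (log2 fold change -2.37, SE 0.53, adjusted p = 0.0522 with edgeR, DESeq2 0.00115). All TSK libraries were below all WT libraries for Ifi206 on deposited CPM, as for 2.58% of all genes. Ms4a4c was at 7.88, 1.22 and 2.46 CPM in WT and 0.546, 0.365 and 1.25 CPM in TSK (log2 fold change -2.59, SE 0.66, adjusted p = 0.0721 with edgeR, DESeq2 0.0014). Both genes that DESeq2 called higher had all TSK libraries above all WT libraries on deposited CPM, as did 29.1% of all genes. Shisa5 was at 30.6, 18.6 and 25.1 CPM in WT and at 38.6, 45.7 and 44.0 CPM in TSK (log2 fold change 0.52, edgeR adjusted p = 0.0756). Ifitm2, a relative of Ifitm3, was at 34.9, 23.0 and 29.3 CPM in WT and at 43.5, 48.4 and 56.1 CPM in TSK (log2 fold change 0.50, edgeR adjusted p = 0.0807). Socs3, an inhibitor of JAK signalling, was called lower by DESeq2 (edgeR log2 fold change -1.0, adjusted p = 0.071). Its level was 35.4, 45.7 and 57.1 CPM in WT and 27.2, 21.7 and 36.2 CPM in TSK, so that WT 3 was the highest library. The 19 interferon gamma targets tested had a median of -0.09, and 9 peaked in WT 1, against 18.34% of all genes. Nlrc5, an inducer of MHC class I genes and the most abundant, was at 89.8, 62.1 and 69.0 CPM in WT and at 65.6, 52.8 and 57.8 CPM in TSK. WT 2 lay below TSK 1 on this scale but above it after TMM scaling. DESeq2 called the gene lower (adjusted p = 0.013), whereas edgeR gave a log2 fold change of -0.59 (SE 0.14, adjusted p = 0.0602).

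Marker genes of cell types were followed beside these values. All 7 basal keratinocyte genes peaked in WT 1 after TMM scaling, against 18.34% of all genes. Together these 7 reached 7942, 4103 and 4747 CPM in the WT mice and 6322, 3990 and 4008 CPM in the TSK mice. The median log2 fold change of that list was -0.40. Of the 8 differentiated keratinocyte genes 0 peaked in WT 1, with sums of 2607, 1645 and 2033 CPM in WT and of 4770, 3647 and 2822 CPM in TSK, and a median of 0.55. The 35 antiviral genes summed to 733, 355 and 473 CPM in WT and to 432, 540 and 578 CPM in TSK on the same scale. Hair follicle genes (median 1.87) summed to 9.44 to 19.1 CPM in WT and 42.2 to 49.8 CPM in TSK, and adipocyte genes (median 2.92) to 315 to 428 CPM in WT and 567 to 2485 CPM in TSK. Summed macrophage genes were at 316, 177 and 262 CPM in WT and 342, 464 and 922 CPM in TSK, and those of Langerhans cells at 194, 83.9 and 151 CPM in WT and 266, 272 and 349 CPM in TSK. Both lists were thus higher in all TSK libraries than in WT 1. Dendritic cell genes, among which Bst2 is shared with the antiviral set, summed to 71.9 to 91.4 CPM in WT and 108 to 128 CPM in TSK, and 2 of the 7 tested genes of that list peaked in WT 1. T and NK cell genes summed to 9.73 to 17.7 CPM in WT and 18.6 to 21.4 CPM in TSK. Neutrophil genes summed to 11.6, 6.60 and 9.30 CPM in WT and 5.17, 7.33 and 8.69 CPM in TSK, with Ly6g at 0 in all libraries. Fibroblast genes summed to 6365 to 9667 CPM in WT and 20451 to 47442 CPM in TSK. Against 2.71% of all genes, edgeR called higher 5 of 7 tested hair follicle genes, 2 of 6 adipocyte, 2 of 6 endothelial, 1 of 7 fibroblast and 1 of 8 differentiated keratinocyte genes, and 0 in the other lists. The part of these cell types in the level of the antiviral genes was not tested.

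**Figure D4:**
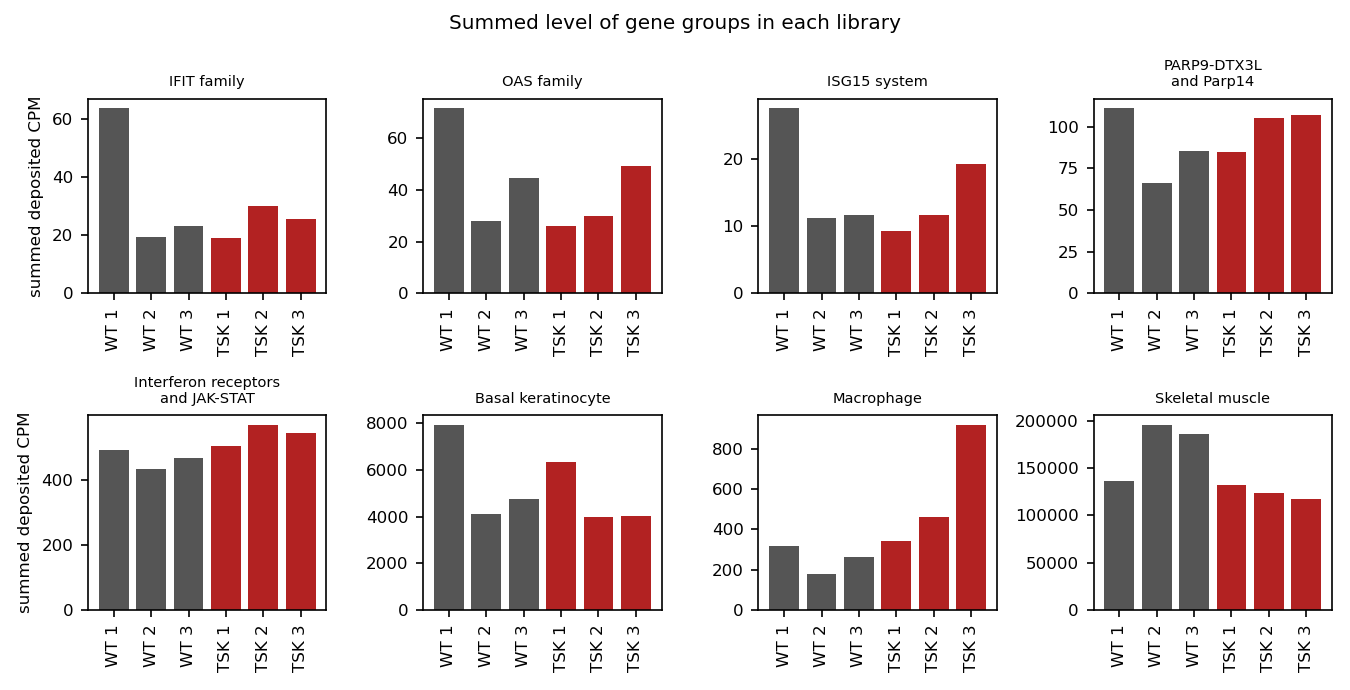
Summed deposited CPM of 8 gene groups in each library (bars from 0, WT in grey and TSK in red), with the IFIT, OAS and ISG15 groups, Parp9, Dtx3l and Parp14, interferon receptors with JAK-STAT, and markers of basal keratinocytes, macrophages and skeletal muscle. The IFIT sum is 63.8 CPM in WT 1 and 18.9 to 30.2 CPM in the other libraries, and the basal keratinocyte sum is also highest in WT 1, whereas the macrophage sum peaks in TSK 3.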

How the data were processed

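Total RNA from the dorsal skin of 3 TSK and 3 WT mice was depleted of ribosomal RNA, converted to stranded libraries and sequenced as single reads of 50 bases. The submitters' processing notes name bcl2fastq 2.19.1.403, STAR, Partek Flow 11.0 and mm10, and the methods name Ensembl annotation. The authors deposited a table of estimated counts per gene, called raw, in which 43.27% to 45.36% of non-zero values per library were whole (within 0.001), so that reads fitting several genes may have been shared among them. Whole counts had been assumed when the test was planned, so the estimated counts were rounded. The authors also deposited CPM, the counts divided by the library total and scaled to 1000000.

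Rounded counts were filtered with filterByExpr (19971 genes left), scaled by TMM and compared by the quasi-likelihood test of edgeR 4.0.16 in R 4.3.3, two-sided, with Benjamini-Hochberg adjustment over all tested genes and a threshold of 0.05. DESeq2 1.42.0 was run as an alternative, as was limma 3.58.1 (limma-trend) on log2(CPM + 1) and log2(CPM + 0.1). SDs on the log2 scale used TMM-scaled log2 CPM (prior count 2). The tests were tried on simulated counts. Each label's mouse is 1 replicate, and with 3 against 3 a permutation of a single value cannot go below p = 0.1.

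The genes and lists were chosen with earlier results of these data known, so no list was tested. Values in every library are given for the most abundant gene of each role, for the 5 genes with the greatest SD within WT, and, from each list of the pathway with a tested gene, for genes called by edgeR (none) or else the most abundant gene. Isg15, the receptor genes with a positive fold change and the pathway genes called by DESeq2 were added after their values were seen. Gene positions are from the count table, checked against GENCODE M21, with which 34 of 35 genes matched and Isg15 differed. Promoters are from RefSeq. Same-numbered WT and TSK libraries were not correlated throughout (0.0112, 0.167 and -0.0938), so numbers were not taken as pairs. 1 gene of the pathway is not reported here.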

Additional observations from a re-analysis of the deposited data

How the results depend on the processing

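The number of antiviral genes called lower, 0 with edgeR, was 4 with DESeq2 (2.01% of all genes), 3 without the low-count filter (Oas3, Isg15 and Irf7; 0.997% of all genes), 1 with the replicate block (Oas3; 0.646%) and 0 to 1 when 1 library was left out (0.0726% to 2.66%), the 1 being Oas3 without WT 2 (0.295%). It was 0 under the other settings, and the number called higher was 0 under all of them. DESeq2 called 1 to 6 lower when 1 library was left out, where its share over all genes ran from 0.809% to 4.61%, the latter without WT 1. The number lower at an unadjusted p below 0.05, 9 with all libraries, was 3 with library size alone (8.57%, against 1.94% of all genes) and 3 to 14 when 1 library was left out. These were 3 if WT 1 was absent (8.57%, against 10.1%), 14 if WT 2 was (40.0%, against 4.97%) and 5 if TSK 1 was (14.3%, against 6.47%). The number separated with TSK higher after TMM scaling was 2 without WT 1, against 22% of all genes. The number separated with TSK lower was 0 on deposited CPM, against 2.58% of all genes. The median log2 fold change of the set was -0.49 to -0.09 when 1 library was left out, the latter without WT 1. With library size alone the median of all genes moved to 0.25 and that of the set to -0.07, so relative to all genes the set lay at -0.32, against -0.30 with TMM. Relative to all genes it lay at -0.11 without WT 1, where the median of all genes was 0.018, and at -0.46 without WT 2.

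Over all genes, 136 were lower and 542 higher. Lower calls numbered 411 with DESeq2, 347 without the filter, 93 with library size alone, 7 at the thresholds of the study and 15 to 547 when 1 library was left out. Higher calls numbered 1136, 1040, 1685, 51 and 45 to 713 in the same order. With limma-trend, lower calls were 100 and 99 and higher calls 1771 and 1761 (pseudocounts 1 and 0.1). The replicate block gave 129 lower and 665 higher. Of the 98 pathway genes tested in the main fit, 0 were called there in either direction. The number called was 6 with DESeq2, 1 with DESeq2 size factors, 6 with library size alone and 5 without the filter. It was 5 with limma-trend at either pseudocount, 3 with the block and 0 to 3 when 1 library was left out. Higher calls over all genes also rose from 542 under each setting that kept all libraries at the same threshold, so these counts do not set the pathway apart.

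Of 455 log2 fold changes of single antiviral genes under alternatives, 392 kept their sign and side of the threshold, 9 kept their sign and passed the threshold, and 54 changed sign. Those with library size alone were Ddx58 0.24, Stat2 0.19, Dtx3l 0.18, Parp14 0.18, Parp9 0.17, Oas2 0.093, Trim25 0.085, Herc6 0.084, Eif2ak2 0.057, Bst2 0.054 and Cmpk2 0.016. With limma-trend at pseudocounts 0.1 and 1 they were Ddx58 0.27 and 0.25, Parp14 0.22 and 0.21, Stat2 0.20 and 0.20, Parp9 0.20 and 0.19, Dtx3l 0.19 and 0.18, Trim25 0.12 and 0.12, Cmpk2 0.11 and 0.083, Herc6 0.090 and 0.080, Eif2ak2 0.085 and 0.081, and Bst2 0.072 and 0.062. Leaving out 1 library gave ranges that crossed 0 for Oas1a (-0.95 to 0.052), Ifit2 (-0.75 to 0.23), Oas2 (-0.68 to 0.063), Ifi44 (-0.62 to 0.0068), Herc6 (-0.49 to 0.15), Cmpk2 (-0.38 to 0.16), Parp14 (-0.21 to 0.15), Stat2 (-0.20 to 0.070), Parp9 (-0.19 to 0.048), Ifitm3 (-0.15 to 0.29), Ddx58 (-0.11 to 0.12), Samd9l (-0.087 to 0.35), Irf9 (-0.057 to 0.10) and Lgals3bp (-0.060 to 0.36). The cause was not tested. At these depths a count of 0 allows up to 0.156 to 0.171 CPM, which bears on the interferon genes.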
